A study of Mus musculus with 5 samples.

Results

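The genes described are 41 DNA repair genes of the mouse, picked by symbol: the BRCA genes and their recombination partners, the Fanconi anaemia pathway, the checkpoint kinases that answer DNA damage, and the break sensing, mismatch, end joining and single-strand break repair machinery. All 41 are among the 38918 features of the normalised table, and 37 of them are among the 9870 genes with a mean value of at least 10 over the 5 libraries, which were the genes tested. The libraries come from mammary tumours of 20-week-old mice of the FVB strain that carry an SV40 transgene, a group of 3 from offspring of dams that ate 26% broccoli sprouts (BSp) between conception and weaning, called maternal BSp here, and a group of 2 from offspring of dams on the control diet. The offspring of both groups received no treatment of their own and both carry the transgene. The promoter that drives the transgene is not given in the sources used here.

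Homologous recombination copies an intact sister sequence into a broken chromosome: Brca1 and Bard1 prepare the break, Palb2 joins Brca1 to Brca2, and Brca2 carries repair on from there. The Fanconi pathway opens crosslinks between DNA strands and hands the break to that machinery, while Atm and Atr, with Chek2 and Chek1, hold the cell cycle until repair is done. SV40 large T antigen is known to bind p53 and the retinoblastoma protein, which frees the E2F factors that drive S phase genes, many repair genes among them.

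Depth was uneven, with 8459029, 61663199 and 13796272 reads in maternal BSp replicates 1, 2 and 3 and 1106813 and 3909583 reads in control replicates 1 and 2, so depth and diet group cannot be told apart. Mitochondrial transcripts held 11.6%, 2.41% and 9.03% of the reads in the maternal BSp libraries and 2.58% and 2.56% in the controls. The transcripts Lars2 and Gm26917 together held 0.770%, 0.117% and 1.13% of the maternal BSp reads, against 9.40% and 4.09% of the control reads. Luminal epithelial markers were present in all 5 libraries: Epcam, an adhesion protein, lay between 1756 and 2393 in normalised value, and of the 9 markers only Foxa1 was at 0 in a library, control replicate 1. The 6 tested basal and myoepithelial markers of 9 were all lower in maternal BSp (median log2 fold change -1.27). The summed level of the 9 was 1455, 1637 and 275 in maternal BSp replicates 1, 2 and 3, against 3228 and 2090 in the controls, with the defining markers Krt5 and Krt14 above 0 in every library. Summed macrophage markers were 563, 1266 and 386 in maternal BSp and 909 and 848 in control libraries, and summed fibroblast markers were 702, 1011 and 286 in maternal BSp and 1042 and 305 in control libraries. In whole tumours, fewer cells of a type and less RNA per cell cannot be told apart, and the part of any of these differences in the values of the repair genes was not tested.

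Sequence at the start sites shows what some of these genes share apart from their role. The RefSeq promoter table (GRCm38.p6) holds a window from 250 bases before to 50 bases after the start for 33 of the 41 genes, all but Nbn, Rbbp8, Exo1, Xrcc2, Rad50, Fancd2, Wrn and Prkdc. A pair of E2F-type motifs, TTTCCCGC and TTCCCGCC, which overlap each other by design, was searched on both strands. At least 1 of them was present in 9 of the 33 genes with a window (27.3%), against 3.15% of all 27025 genes with a window and 6.69% of the 7371 tested genes with one. A gene was counted if any of its windows held the motif, and 4 of the 33 genes have 2 windows. TTTCCCGC was in 6 of the 33 (18.2%, against 1.24% of all genes with a window and 2.75% of the tested genes with one). TTCCCGCC was in 5 (15.2%, against 2.52% and 5.29%), and Msh6 and Rad51c held both. The 9 matches are shown in 30 bases each, read 5′ to 3′ on the strand of the gene, with the matched letters in capitals. In Brca2, Chek1, Chek2, Polq, Rad51c and Xrcc6 the match is on the opposite strand, so the capitals show its reverse complement.
Bard1 (chr1:71103163-71103192, minus strand): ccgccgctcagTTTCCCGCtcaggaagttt
Brca2 (chr5:150522442-150522471, plus strand): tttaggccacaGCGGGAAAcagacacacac
Chek1 (chr9:36726609-36726638, minus strand): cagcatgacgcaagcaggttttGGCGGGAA
Chek2 (chr5:110839820-110839849, plus strand): cgggattagccGCGGGAAAccaagacgtcg
Fancm (chr12:65075538-65075567, plus strand): aaccaatcatcTTCCCGCCgcaaaatcggc
Msh6 (chr17:87975055-87975084, plus strand): tcctcccgacTTTCCCGCCagcggcggccg
Polq (chr16:37011784-37011813, plus strand): ttgaagatggaGGCGGGAAgatggaggcgg
Rad51c (chr11:87404941-87404970, minus strand): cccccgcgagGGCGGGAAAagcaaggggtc
Xrcc6 (chr15:82016312-82016341, plus strand): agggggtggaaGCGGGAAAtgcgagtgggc

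Positions counted from the RefSeq start site set these matches apart. Those of Bard1 (-209 to -202), Brca2 (-168 to -161) and Chek2 (-152 to -145) lay far upstream. For Bard1 this depends on the annotation, because its GENCODE start, at 71103146 on chromosome 1, is much closer to the match. Those of Fancm (-54 to -47), Xrcc6 (-46 to -39) and Rad51c (-6 to 3) were close to the start, and those of Polq (10 to 17), Msh6 (16 to 24) and Chek1 (43 to 50) lay inside the transcript. Other motifs were nearer to the share in tested genes. The ETS-type motif CCGGAAG was in 10 of the 33 genes with a window (30.3%), against 22.2% of tested genes and 9.93% of all genes with a window. CCAAT was in 18 (54.5%, against 43.2% and 41.1%) and the GC box GGGCGG in 23 (69.7%, against 73.1% and 38.2%). Against all genes with a window, then, the ETS-type motif and the GC box were also more frequent. The genes that hold an E2F-type motif did not share a direction. Among the 8 of the 9 that were tested, Chek1, Chek2 and Polq had every maternal BSp library above both controls. Bard1 and Brca2 had a log2 fold change above 0 with overlapping groups, and Msh6, Rad51c and Xrcc6 had one below 0, also with overlap. With the length and GC trend removed, Bard1, Brca2 and, by a very small margin, Polq turned below 0.

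As a class, most of the repair genes were somewhat higher in tumours of the maternal BSp group, and none of them passed the test on its own. Of the 37 tested, 31 had a positive log2 fold change (83.8%, against 63.2% of all 9870 genes), and their median was 0.44, against 0.21 for all genes tested. Median-of-ratios scaling, which centres the typical gene by construction, puts the median of all genes at 0.00, so values relative to that median are given as well. Relative to the median of all genes, the median of the repair genes stood 0.23 higher as deposited, 0.24 higher after median-of-ratios scaling and 0.18 higher after quantile normalisation. It stood only 0.02 higher once the trend of each library on transcript length and GC content was removed. The 6 genes below 0 were Rad51c, Rad54l, Fancl, Mre11a, Msh6 and Xrcc6. With median-of-ratios scaling 26 of 37 were above 0, against 4956 of all 9870 genes, and with quantile normalisation 26 of 37, against 5149 of 9870. With the length and GC trend removed 21 of 37 were, against 4695 of the 9351 genes with an annotated length.

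**Figure D1:**
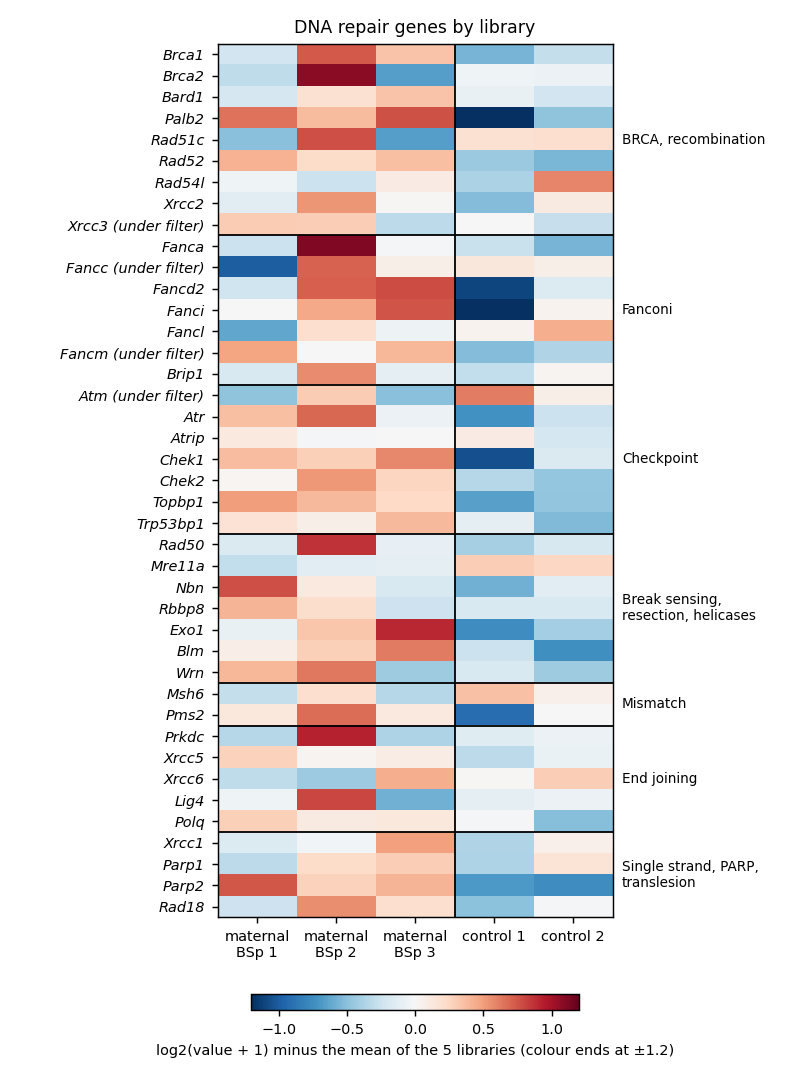
Heat map of the 41 genes (down, by role) in the 3 maternal BSp libraries and the 2 control libraries (across), as log2(value + 1) minus the mean of the 5 libraries, with 2 cells beyond the end of the colour scale. Among the 37 tested genes the highest library was a maternal BSp one in 33 (89.2%, against 78.2% of all genes tested) and the lowest was a control in 28 (75.7%, against 45.9%).

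No gene of the whole table, and so none of the 37, had an adjusted p under 0.05 by limma with Benjamini-Hochberg adjustment over 9870 genes (0% called); the smallest adjusted p among the repair genes was 0.407. At an unadjusted p under 0.05, 4 of the 37 (10.8%) were higher, Topbp1, Parp2, Palb2 and Chek1, against 8.01% of all genes, and 0 were lower, against 3.14% of all genes. With the length and GC trend removed 4 of the 37 were again under that p, against 8.75% of all genes. Mre11a and Fancl, both lower, were then among them, and Topbp1, Palb2 and Chek1 were not. edgeR's quasi-likelihood test on recovered reads called 0 genes in all and had 2 of the 37 repair genes at an unadjusted p under 0.05, against 9.84% of all genes. DESeq2 called 100 genes (1.01% of those tested), 0 of them repair genes, and had 3 of the 37 at an unadjusted p under 0.05, against 11.8% of all genes. limma with array weights, which gave weight 2.97 to maternal BSp replicate 1, 0.337 and 0.456 to the other maternal BSp libraries and 1.48 to each control, called 699 genes (7.08%), among them Topbp1 (adjusted p = 0.0421) and Parp2 (adjusted p = 0.0332). Without control replicate 1 limma's count of 4 was 1 (3.34% of all genes were under that p), and without maternal BSp replicate 1 it was 2 (6.75% of all genes).

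Every maternal BSp library lay above both controls for 16 of the 37 genes (43.2%, against 23.8% of all genes tested): Brca1, Palb2, Rad52, Fanca, Atr, Chek1, Chek2, Topbp1, Trp53bp1, Rad50, Exo1, Blm, Pms2, Xrcc5, Polq and Parp2. Mre11a alone lay below both controls in every maternal BSp library (2.7%, against 9.21% of all genes tested). The other 20 overlapped. The authors' deposited table is a list of 2447 genes that gives a p-value for control against BSp above 0 and under 0.05 for 1739 of them. Such a p-value is given in the authors' deposited table for 6 of the 37 tested repair genes, against 11.3% of the 9870 genes tested, and for the untested Fancm. These p-values in the authors' deposited table were Rad52 (0.00719), Palb2 (0.0140), Topbp1 (0.0148), Parp2 (0.0237), Chek1 (0.0286), Fancm (0.0297) and Trp53bp1 (0.0308).

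**Figure D2:**
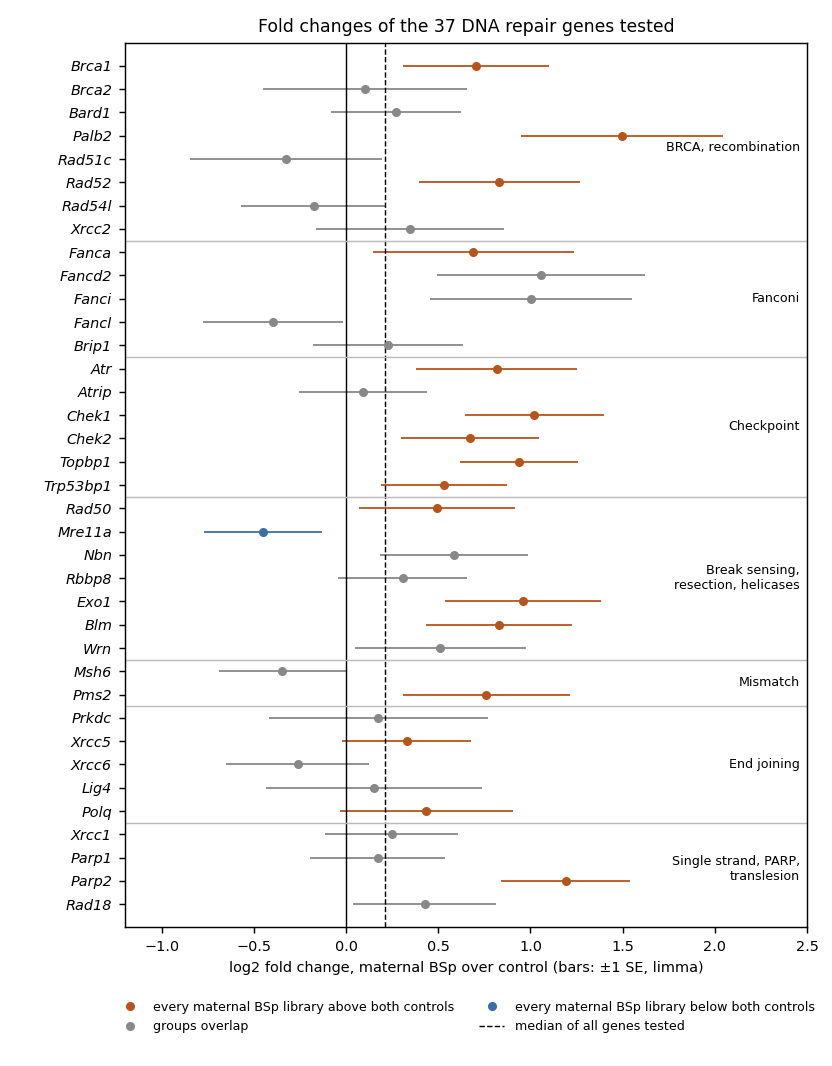
Log2 fold changes (maternal BSp over control) for the 37 tested genes, by role, with bars of 1 SE from limma and a dashed line at the median of all genes tested. Orange marks the 16 genes whose maternal BSp libraries all lay above both controls, blue marks Mre11a, and grey marks the 20 that overlapped; the median of the 37 was 0.44 and that of all genes was 0.21.

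Summed over all 41, the repair genes took a larger share of the reads in each maternal BSp library than in either control. The 41 genes together held 0.139%, 0.168% and 0.150% of the reads in maternal BSp replicates 1, 2 and 3, against 0.111% and 0.126% in control replicates 1 and 2. The 95% Wilson intervals, which cover counting error only, ran between 0.137% and 0.142% in maternal BSp replicate 1, between 0.166% and 0.169% in replicate 2 and between 0.148% and 0.152% in replicate 3. In the controls they ran between 0.105% and 0.117% in replicate 1 and between 0.123% and 0.130% in replicate 2. Leaving out Lars2, Gm26917 and mitochondrial transcripts, the shares were 0.159%, 0.172% and 0.167% in maternal BSp and 0.126% and 0.135% in control libraries, so the order of the groups held. Topbp1 alone held 1710 of the 11786 repair gene reads in maternal BSp replicate 1 and 400 of the 4932 in control replicate 2. The shares without Topbp1 are not given, so this order speaks of the sum and not of the class gene by gene. Control replicate 1, the shallowest, had between 4 and 153 reads per repair gene (median 21), where maternal BSp replicate 2 had between 426 and 11492 (median 2044).

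Levels per length differed widely between the genes. On the scale of normalised value per kb of the longest coding transcript, averaged over the 5 libraries, the lowest was Atm at 0.946 and the highest was Topbp1 at 31.7. The large kinase and polymerase genes Atm, Prkdc (1.03) and Polq (1.68) and the mediator Brca2 (2.45) were at the low end. Msh6 (28.7), Xrcc1 (28.0), Parp1 (24.3) and Fancl (20.5) were next below Topbp1. The 4 genes under the mean of 10, counted as untested, were Xrcc3 (6.17), Fancc (7.77), Atm (9.29) and Fancm (9.40), and the nearest genes above it were Lig4 (12.6), Prkdc (13.1) and Palb2 (13.2). Palb2 and Fancd2 passed this filter only through maternal BSp, with control means of 5.96 and 9.23. Atm, with a control mean of 11.7, did not pass, as its maternal BSp mean was 7.69.

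Among the BRCA and recombination genes, 6 of the 8 tested were higher in maternal BSp (median log2 fold change 0.31). The largest fold change was in Palb2, the bridge between Brca1 and Brca2, which passed the mean of 10 only through the maternal BSp group. Palb2 (chr7:122107262-122132985, minus strand, GRCm38) had normalised values of 18.6, 15.2 and 20.1 in maternal BSp replicates 1, 2 and 3, against 4 and 7.93 in control replicates 1 and 2. The groups averaged 18.0 ± 2.5 in maternal BSp (SD, n = 3) and 5.96 ± 2.78 in control (SD, n = 2), a ratio of 3.02. Every maternal BSp library was well above both controls. The log2 fold change of 1.5 (SE 0.55) had an unadjusted p of 0.0251 and an adjusted p of 0.418 by limma. The control values rest on few reads, 4 in replicate 1 (exact 95% Poisson interval 1.09 to 10.2) and 28 in replicate 2 (18.6 to 40.5), against 142, 849 and 251 in the maternal BSp libraries. The 250 bases before its RefSeq start are shown because it had the highest fold change of the 37. Capitals mark an ETS-type match (CTTCCGG, the reverse complement of CCGGAAG) and a GC box (CCGCCC, the reverse complement of GGGCGG), and there is no E2F-type match.
Palb2 (chr7:122132947-122133196, minus strand): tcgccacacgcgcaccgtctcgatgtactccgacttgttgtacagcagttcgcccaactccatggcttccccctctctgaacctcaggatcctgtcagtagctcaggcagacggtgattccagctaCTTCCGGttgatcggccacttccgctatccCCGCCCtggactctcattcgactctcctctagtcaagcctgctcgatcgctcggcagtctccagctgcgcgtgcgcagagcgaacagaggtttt

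Rad52, an annealing protein that in mammals backs up Brca2, showed the same order. It had 20.9, 18.1 and 20.0 in the maternal BSp libraries, against 11 and 10.2 in the controls, with no overlap and a narrow spread within each group (19.7 ± 1.46 in maternal BSp, 10.6 ± 0.572 in control). Its log2 fold change was 0.83 (SE 0.44, adjusted p = 0.489 by limma). Rad54l, a motor protein that acts on DNA during recombination, was the most abundant of this group by value and did not separate: it had 50.5, 43.4 and 55.9 in maternal BSp and 40 and 79.0 in control libraries. Its log2 fold change of -0.18 (SE 0.39) turned to 0.31 without control replicate 2. Its exons share 15.4% of their length with Lrrc41 on the opposite strand.

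Brca1 and Brca2, whose library values are given because the class bears their name and were chosen after they were seen, behaved differently. Brca1 (chr11:101488764-101551955, minus strand) had 34.3, 67.9 and 51.2 in the maternal BSp libraries, against 27 and 32.8 in the controls (51.1 ± 16.8 in maternal BSp, 29.9 ± 4.13 in control). The groups did not overlap, though maternal BSp replicate 1 was just above control replicate 2; the log2 fold change was 0.71 (SE 0.40, adjusted p = 0.513 by limma). Brca2 (chr5:150522630-150570329, plus strand) had 19.1, 51.7 and 14.8 in maternal BSp and 23 and 22.6 in control libraries. Here a single library, maternal BSp replicate 2, was high and the other maternal BSp libraries were below both controls, so the log2 fold change of 0.10 (SE 0.55) became -0.42 without that library. Rad51c, a recombination mediator, had the same shape, with 14.5, 36.7 and 12.9 in maternal BSp and 24 and 24.3 in control libraries (log2 fold change -0.32). Bard1 (log2 fold change 0.27) and the mediator Xrcc2 (0.35) overlapped between the groups, with values between 32.6 and 48.9 for Bard1 and between 9 and 19.7 for Xrcc2. The untested mediator Xrcc3 lay between 4.65 and 7.72 in maternal BSp and between 4.81 and 6 in control libraries. Of the 8 tested genes of this group 5 were above 0 under upper quartile, median-of-ratios and quantile scaling, and 4 were with the length and GC trend removed.

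**Figure D3:**
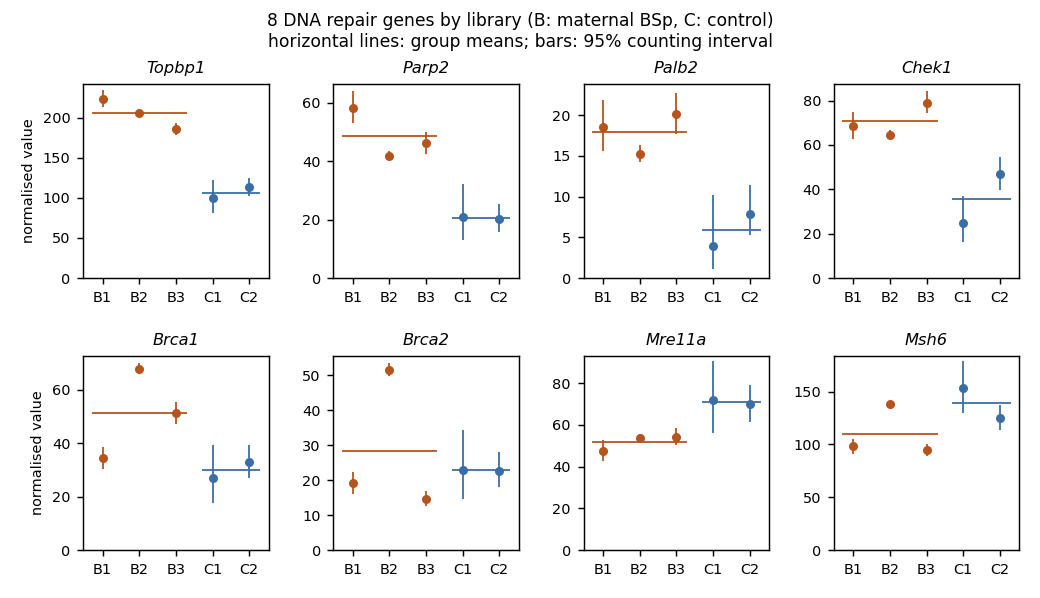
Normalised value in each library for 8 repair genes, with maternal BSp replicates (B1 to B3, orange) left of control replicates (C1 and C2, blue), horizontal lines at the group means and vertical bars for the exact 95% Poisson interval of the recovered reads. Topbp1 spans 186 to 224 in maternal BSp and 100 to 113 in control libraries without overlap, whereas maternal BSp replicate 2 alone is high for Brca2, at 51.7.

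In the Fanconi pathway 4 of the 5 tested genes were higher in maternal BSp, with a median log2 fold change of 0.69; after quantile normalisation or with the length and GC trend removed 3 of 5 were, since Brip1 turned below 0. Fancd2 and Fanci form the clamp that is ubiquitinated when the pathway is switched on. Fancd2 (chr6:113531682-113597017, plus strand) had 11.8, 23.8 and 24.9 in maternal BSp, against 6 and 12.5 in control libraries. Fanci (chr7:79391929-79450264, plus strand) had 15.6, 21.8 and 27 in maternal BSp, against 6 and 16.1 in control libraries. In both genes maternal BSp replicate 1 lay just below control replicate 2, and control replicate 1 was the lowest of the 5. The log2 fold changes were 1.05 (SE 0.56) for Fancd2 and 1.00 (SE 0.55) for Fanci, with adjusted p = 0.496 and 0.503 by limma. The partners kept nearly the same proportion, with a ratio of Fancd2 to Fanci per kb of 0.778 ± 0.142 in maternal BSp (SD, n = 3) and 0.747 ± 0.136 in control (SD, n = 2). In control replicate 1 that ratio rests on the 6 reads of each gene. Fanci shares 16% of its exon length with Polg on the opposite strand.

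Fancl, the ubiquitin ligase that acts on that clamp, was lower: it had 34.9, 62.8 and 52.1 in maternal BSp, against 56 and 73.6 in control libraries. The groups overlapped, with maternal BSp replicate 2 between the controls, and the log2 fold change was -0.40 (SE 0.38, adjusted p = 0.690 by limma). It shares 13.7% of its exon length with Vrk2 on the opposite strand. Fanca, a subunit of the core complex that holds Fancl, had 13.1, 35.5 and 15.6 in maternal BSp and 13 and 10.5 in control libraries. Its groups stood apart only by a small margin at maternal BSp replicate 1, and its log2 fold change was 0.69 (SE 0.55). Brip1, the helicase that binds Brca1, overlapped, with 22.9 to 39.2 in maternal BSp and 21 to 26.6 in control libraries (log2 fold change 0.23, and -0.01 without maternal BSp replicate 2). Of the untested pair, the core subunit Fancc overlapped (3.14 to 12.4 in maternal BSp, 7.64 to 8 in control libraries). Fancm, the translocase that anchors the core complex, had 13, 9.05 and 12.2 in maternal BSp, against 6 and 6.79 in control libraries, with no overlap.

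In the checkpoint group all 6 tested genes were higher in maternal BSp, against 63.2% of all genes tested, with a median log2 fold change of 0.74. In 5 of the 6 every maternal BSp library lay above both controls, against 23.8% of all genes tested. Atrip, the exception, turned below 0 under other scalings, so that 5 of 6 were above 0 there and with the length and GC trend removed. Topbp1, which switches on the kinase Atr at stalled replication forks, was the most abundant. Topbp1 (chr9:103305215-103350428, plus strand) had 224, 206 and 186 in maternal BSp, against 100 and 113 in control libraries. Its group means were 205 ± 18.9 in maternal BSp (SD, n = 3) and 107 ± 9.36 in control (SD, n = 2), a ratio of 1.93, and the gap between the groups was wider than the spread within either. The log2 fold change was 0.94 (SE 0.32), with an unadjusted p of 0.0184 and an adjusted p of 0.407 by limma; over 16 alternatives it ranged between 0.51 and 1.03, with adjusted p between 0.0421 and 0.980. The value rests on 100 reads in control replicate 1 and 400 in control replicate 2. The annotation lists 2 processed pseudogenes of Topbp1 on chromosome 7 that have no line of their own in the table, so reads from them could not be told apart and the Topbp1 level is uncertain. The 250 bases before its RefSeq start are shown for comparison with Palb2. They hold an ETS-type match on each strand (CCGGAAG and CTTCCGG) and a GC box on each strand (GGGCGG and CCGCCC), in capitals.
Topbp1 (chr9:103305077-103305326, plus strand): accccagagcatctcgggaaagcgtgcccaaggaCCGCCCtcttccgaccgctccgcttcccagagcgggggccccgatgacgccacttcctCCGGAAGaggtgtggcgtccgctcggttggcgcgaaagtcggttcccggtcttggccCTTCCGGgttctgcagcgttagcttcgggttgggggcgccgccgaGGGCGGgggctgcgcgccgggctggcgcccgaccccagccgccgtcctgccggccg

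Chek1, the kinase that Atr activates to slow S phase, followed Topbp1. Chek1 (chr9:36708482-36727065, minus strand) had 68.6, 64.6 and 79.1 in maternal BSp, against 25 and 46.7 in control libraries. The groups did not overlap, but the controls differed from each other more than the maternal BSp libraries did (70.8 ± 7.5 in maternal BSp, 35.9 ± 15.4 in control). The log2 fold change was 1.02 (SE 0.38), with an unadjusted p of 0.0269 and an adjusted p of 0.418 by limma, and it ranged between 0.44 and 1.46 over 16 alternatives. Atr itself had 26.6, 33.7 and 19.4 in maternal BSp, against 12 and 17.0 in control libraries (log2 fold change 0.82, SE 0.43). Chek2, the kinase downstream of Atm, had 26.2, 37.2 and 31.0 in maternal BSp, against 20 and 18.4 in control libraries (0.67, SE 0.37). Both were therefore separated by library, although less widely than Topbp1. Trp53bp1, a chromatin reader that limits end resection, spanned 47.7 to 59.8 in maternal BSp and 31.1 to 42 in control libraries (0.53), and shares 15% of its exon length with Tubgcp4 on the opposite strand. Atrip, the obligate partner of Atr, was nearly level: 30.3 to 33.4 in maternal BSp and 26.3 to 33 in control libraries, with a log2 fold change of 0.09 that was -0.12 after median-of-ratios scaling. Atm was under the mean of 10 and lay the other way, with 6.02, 11.1 and 5.94 in maternal BSp and 14 and 9.34 in control libraries, which overlapped.

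Among the genes for break sensing, end resection and helicases, 6 of the 7 tested were higher in maternal BSp (median log2 fold change 0.51, and 4 of 7 above 0 with the length and GC trend removed). The exception was Mre11a, the nuclease of the complex that it forms with Rad50 and Nbn to detect broken ends. Mre11a (chr9:14784654-14837123, plus strand) had 47.5, 53.5 and 54.2 in maternal BSp, against 72 and 69.9 in control libraries. All 3 maternal BSp libraries were below both controls (51.7 ± 3.69 in maternal BSp, 71.0 ± 1.47 in control), with a log2 fold change of -0.45 (SE 0.32, adjusted p = 0.589 by limma). It ranged between -0.90 and -0.39 over 16 alternatives. Rad50 lay the other way, with 32.8, 68.7 and 34.8 in maternal BSp, against 28 and 32.6 in control libraries. The ratio of Mre11a to Rad50 per kb, which no scaling of whole libraries changes and which was chosen after the values were seen, was 1.32, 0.709 and 1.42 in maternal BSp, against 2.34 and 1.96 in control libraries. Nbn, the third subunit, overlapped, with 80.3, 50.9 and 40.9 in maternal BSp and 31 and 42.7 in control libraries (log2 fold change 0.59, highest in maternal BSp replicate 1).

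Exo1, a nuclease of long-range resection, had 25.6, 34.8 and 52.3 in maternal BSp, against 16 and 20.4 in control libraries (log2 fold change 0.96, SE 0.42, adjusted p = 0.445 by limma). Blm, the helicase lost in Bloom syndrome, had 26.8, 31.0 and 39.6 in maternal BSp, against 21 and 14.7 in control libraries (0.83, SE 0.39, adjusted p = 0.457 by limma). In both genes the groups stood apart and maternal BSp replicate 3 was the highest library. The related helicase Wrn spanned 15.1 to 32.5 in maternal BSp and 15 to 18 in control libraries (0.51), and the resection factor Rbbp8 spanned 46.8 to 74.2 in maternal BSp, against 49 in each control (0.31). Both overlapped through maternal BSp replicate 3 alone, and both were below 0 with the length and GC trend removed.

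The mismatch repair pair went opposite ways. Msh6, which recognises mismatches, had 98.3, 138 and 94.5 in maternal BSp, against 153 and 125 in control libraries. Pms2, which cuts the strand to be repaired, had 23.6, 34.9 and 23.5 in maternal BSp, against 11 and 21.5 in control libraries. Msh6 overlapped through maternal BSp replicate 2 (log2 fold change -0.35, SE 0.34, adjusted p = 0.700 by limma), and Pms2 did not overlap (0.76, SE 0.45, adjusted p = 0.529 by limma). The ratio of Msh6 to Pms2 per kb was 5.38, 5.11 and 5.18 in maternal BSp, against 17.9 and 7.5 in control libraries. The maternal BSp ratios were close to one another and below both controls, but control replicate 1 has only 11 reads of Pms2.

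End joining lay near the level of all genes, with 4 of the 5 tested genes above 0 and a median log2 fold change of 0.18. That count was 2 of 5 under median-of-ratios or quantile scaling and 1 of 5 with the length and GC trend removed. Xrcc5 and Xrcc6, the subunits of the Ku ring that holds broken ends, differed in order. Xrcc5 had 36.6, 30.7 and 31.9 in maternal BSp, against 24 and 28.3 in control libraries, without overlap (0.33, SE 0.35). Xrcc6 had 42.9, 39.1 and 72.4 in maternal BSp and 54 and 66.0 in control libraries (-0.26, SE 0.39), with maternal BSp replicate 3 highest of all and the other maternal BSp libraries lowest. Per kb, the ratio of Xrcc6 to Xrcc5 was 0.908, 0.987 and 1.76 in maternal BSp and 1.74 and 1.81 in control libraries, so maternal BSp replicate 3 was at the control level. Polq, the polymerase of microhomology-mediated joining, had 17.4, 15.3 and 15.6 in maternal BSp, against 14 and 9.63 in control libraries, a narrow separation (0.44, SE 0.47). Prkdc, the kinase that binds Ku, spanned 9.23 to 24.1 in maternal BSp and 11 to 11.6 in control libraries. Lig4, the ligase of the pathway, spanned 7.70 to 21.6 in maternal BSp and 11 to 11.3 in control libraries. In both, maternal BSp replicate 2 was the only maternal BSp library clearly above the controls, and without it the log2 fold change was -0.25 for Prkdc and -0.22 for Lig4.

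All 4 genes of single-strand break repair, PARP signalling and translesion synthesis were higher in maternal BSp (median log2 fold change 0.34; 3 of 4 above 0 after median-of-ratios scaling and with the length and GC trend removed, where Parp1 was below 0). Parp2, which adds ADP-ribose chains at nicks, had the smallest p of the 37. Parp2 (chr14:50807841-50821301, plus strand) had 58.2, 41.8 and 46.0 in maternal BSp, against 21 and 20.1 in control libraries. Every maternal BSp library was well above the controls, which were close to each other (48.7 ± 8.53 in maternal BSp, 20.6 ± 0.636 in control, a ratio of 2.37). The log2 fold change was 1.19 (SE 0.35), with an unadjusted p of 0.00898 and an adjusted p of 0.407 by limma, and it ranged between 0.94 and 1.38 over 16 alternatives. Control replicates 1 and 2 had 21 and 71 reads of it. Parp1, the more abundant enzyme of the same activity, overlapped: it had 74.1, 108 and 114 in maternal BSp and 71 and 104 in control libraries (0.17, SE 0.37). The ratio of Parp2 to Parp1 per kb was 1.61, 0.792 and 0.829 in maternal BSp, against 0.605 and 0.397 in control libraries, above both controls in every maternal BSp library. The 250 bases before the RefSeq start of Parp2 hold 1 GC box (CCGCCC, in capitals) and none of the E2F, ETS or CCAAT letters. The upstream letters of Palb2, Topbp1 and Parp2 thus have only the GC box in common, which 73.1% of tested genes hold in their windows. Chek1, the other gene with an unadjusted p under 0.05, holds none of these motifs in its 250 upstream bases.
Parp2 (chr14:50807666-50807915, plus strand): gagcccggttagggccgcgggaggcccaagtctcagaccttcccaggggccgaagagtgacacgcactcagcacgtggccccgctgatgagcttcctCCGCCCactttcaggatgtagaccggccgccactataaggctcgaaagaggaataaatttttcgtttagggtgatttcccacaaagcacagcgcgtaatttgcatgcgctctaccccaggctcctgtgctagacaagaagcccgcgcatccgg

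Rad18, the ligase that marks PCNA for translesion synthesis, had 32.2, 56.7 and 44.2 in maternal BSp and 27 and 37.7 in control libraries (log2 fold change 0.43, SE 0.39), which overlapped by maternal BSp replicate 1. Xrcc1, the scaffold of single-strand break repair, spanned 62.0 to 98 in maternal BSp and 54 to 72.5 in control libraries (0.25).

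Maternal BSp replicate 2, the deepest library, stood apart for part of the class. It exceeded both other maternal BSp libraries by more than 1.5-fold for 7 of the 37 genes (18.9%): Brca2, Rad51c, Fanca, Brip1, Rad50, Prkdc and Lig4. The same held for 25.9% of all genes tested, so the repair genes were not above the background in this. Maternal BSp replicate 1 stood out in that way for Nbn alone (2.7%, against 4.09% of all genes) and replicate 3 for Exo1 and Xrcc6 (5.41%, against 7.94%). Without maternal BSp replicate 2, 27 of 37 were above 0 with a median of 0.30, against 0.08 for all genes. The median deviation of the 37 genes from their mean over libraries was -0.05, 0.33 and 0.12 on the log2 scale in maternal BSp replicates 1, 2 and 3 and -0.35 and -0.16 in the controls. For all genes it was -0.01, 0.35 and -0.05 in maternal BSp and -0.12 and -0.09 in the controls. Relative to all genes, then, only maternal BSp replicate 3 was clearly above (0.17), replicates 1 and 2 were near the level of all genes (-0.04 and -0.02), and control replicates 1 and 2 were below (-0.22 and -0.07).

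**Figure D4:**
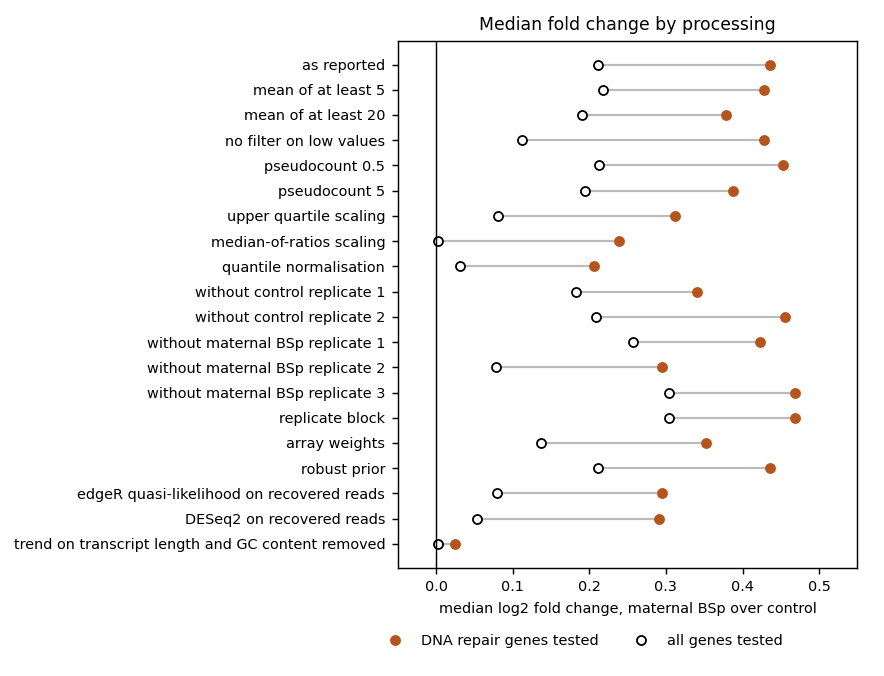
Median of the log2 fold changes (maternal BSp over control) for the repair genes tested (orange) and for all genes tested (open circles) under each processing alternative. The repair genes lie to the right of all genes in every line, with medians between 0.21 and 0.47 apart from 0.03 where the trend on transcript length and GC content was removed.

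Fold changes were also set against the length of the transcripts. Over all genes with an annotated length, longer transcripts had higher fold changes: the 10% with the shortest transcripts had a median of -0.42 and the 10% with the longest 0.44, with a Spearman correlation of 0.36 across 9351 genes, which share the same 5 libraries and are not independent replicates. The repair genes are long, with a median of 4485 bases, against 3154 for all genes, and their GC content is lower, 46.2%, against 50.4%. Among themselves the correlation of fold change with length was 0.01 (n = 37). Split at their median length, a division chosen after the values were seen, the 19 longer ones had a median of 0.53 and 18 were above 0. Genes of the same length range had a median of 0.42, with 79.3% above 0. The 18 shorter ones had a median of 0.32 with 13 above 0, against 0.21 and 64.7% for genes of their range. Within either range the repair genes were thus closer to other genes than in the comparison without regard to length.

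**Figure D5:**
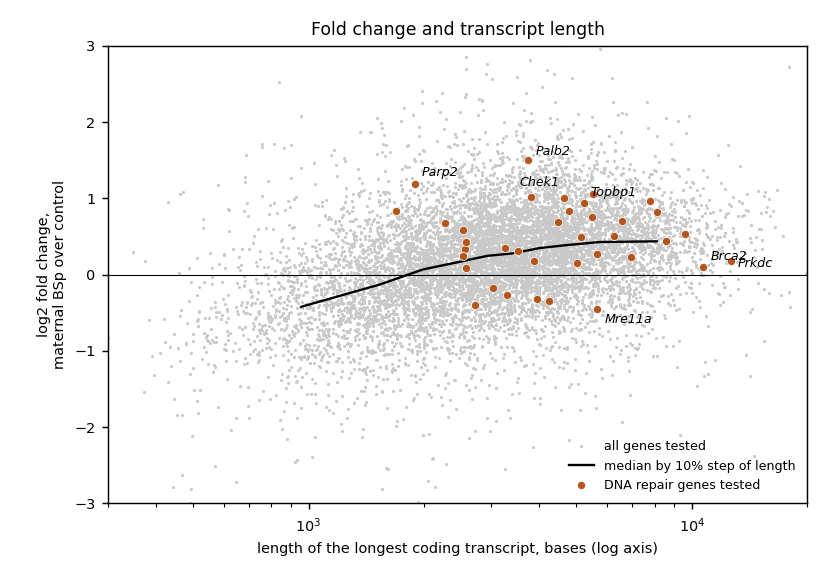
Log2 fold changes (maternal BSp over control) against the length of the longest coding transcript in bases (log axis) for all genes tested (grey; 34 lie outside the drawn range), with the median in each 10% step of length (line) and the repair genes (orange). The line runs between -0.42 at the shortest and 0.44 at the longest step, and the 37 repair genes scatter around it without a slope of their own (Spearman 0.01).

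Other DNA repair genes, counted by whole lists, were nearer to the background: of 119 tested of 152 listed, 80 were above 0, with a median of 0.28 (65 and 0.08 after median-of-ratios scaling, 68 and 0.09 with the length and GC trend removed). At an unadjusted p under 0.05 by limma, 13 of the 119 were higher, against 8.01% of all genes tested, and 0 were lower, against 3.14%. None passed the adjusted threshold. Translesion synthesis had the highest median of these lists, with 9 of 10 above 0 and a median of 0.96 (9 and 0.76 after median-of-ratios scaling, 8 and 0.55 with the length and GC trend removed). Rev1, its scaffold polymerase, had 18.4, 35.3 and 13 in maternal BSp, against 3 and 5.66 in control libraries (log2 fold change 2.06, SE 0.63, adjusted p = 0.407 by limma). Every maternal BSp library was above both controls, though control replicate 1 holds only 3 reads of Rev1. Other recombination genes had 20 of 28 above 0 (median 0.45; 18 after median-of-ratios scaling and 16 with the trend removed), with Rmi1, a partner of Blm, at 28.3, 32.4 and 26.2 in maternal BSp, against 9 and 9.06 in control libraries. Rpa2, a subunit of the protein that coats single-stranded DNA, lay the other way, with 114, 149 and 169 in maternal BSp, against 242 and 245 in control libraries. The 11 other Fanconi genes divided, with 5 above 0 and a median of -0.02, yet Wdr48, the cofactor of the enzyme that removes ubiquitin from Fancd2, had 65.2, 93.1 and 64.2 in maternal BSp, against 21 and 27.5 in control libraries (1.56, SE 0.36, adjusted p = 0.407 by limma).

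The remaining lists gave the following counts. Other checkpoint genes had 17 of 21 above 0 (median 0.29), but 12 of 21 after median-of-ratios scaling (0.09) or quantile normalisation (0.03) and 13 of 21 with the length and GC trend removed (0.09). Among them Tti1, which stabilises the kinases of the Atm family, had 17.9, 19.7 and 17.3 in maternal BSp, against 5 and 2.83 in control libraries. Other mismatch repair genes had 4 of 11 above 0 (median -0.16), with Msh3 at 38.7, 41.1 and 41.3 in maternal BSp, against 17 and 23.8 in control libraries. Msh3, which recognises small loops in DNA, thus lay opposite to Msh6. Base excision repair had 12 of 15 above 0 (median 0.35), nucleotide excision repair 11 of 19 (0.16), other end joining genes 5 of 8 (0.30) and the cohesin and SMC complexes 16 of 21 (0.26). After median-of-ratios scaling these 4 counts were 9, 8, 5 and 11, and with the length and GC trend removed they were 12, 7, 5 and 9.

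Markers of dividing cells were mostly higher in maternal BSp as deposited, but not with the length and GC trend removed. Of 25 proliferation markers, 20 were above 0, with a median of 0.40. After median-of-ratios scaling 18 were above 0 (median 0.19), and with the length and GC trend removed 12 were (median -0.04). Mki67, the antigen of cycling cells, had 551, 357 and 450 in maternal BSp, against 210 and 234 in control libraries (log2 fold change 1.00, SE 0.35, adjusted p = 0.407 by limma). The median deviation of these markers from their mean over libraries was 0.08, 0.11 and 0.27 in maternal BSp and -0.30 and -0.18 in control libraries, the same order of groups as the repair genes. The replication genes and E2F targets did not follow, with 23 of 37 above 0 (15 after median-of-ratios scaling and 14 with the trend removed), a median of 0.09, and deviations of -0.12, 0.31 and -0.11 in maternal BSp and -0.12 and 0.01 in control libraries. Targets of p53 had 16 of 21 above 0 (median 0.34), 12 after median-of-ratios scaling and 13 with the length and GC trend removed. Among them Mdm2, the ligase of p53, had 53.6, 73.9 and 65.0 in maternal BSp, against 34 and 39.9 in control libraries, and Phlda3, an inhibitor of Akt, had 55.3, 85.5 and 84.0 in maternal BSp, against 151 and 145 in control libraries. The part of cell division in the values of the repair genes was not tested.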

How the data were processed

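RNA sequencing of 5 mammary tumours was analysed, 3 maternal BSp and 2 control, grouped and numbered by their description labels. Libraries were made with a strand-specific mRNA kit, per the labels' protocols. Whether each library is a separate animal is not stated, so the p-values speak of the spread among libraries. The deposited normalised table holds a signal per gene, a coverage in reads scaled by the authors so that every column sums to 1106813. The submitters' processing notes name FastQC, Trim Galore, cutadapt, STAR and DESeq with GRCm38 and mm10, without versions; how reads were counted, on which annotation and with what use of strand is not given in the sources used here, so overlapping genes are uncertain. The second deposited table gives the authors' p-value for control against BSp, per the file headers; it is 0 for 708 of its genes, Nbn among them, with no statement of what 0 means there, and those were left uncounted.

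Each nonzero value came out as a whole number of reads (100% of values, tolerance 0.1 read), so reads were recovered; on them edgeR called 0 genes and DESeq2 100. A count of 0 allows 3 reads, a value of 0.393, 0.0538 and 0.241 in maternal BSp replicates 1, 2 and 3 and of 3 and 0.849 in control replicates 1 and 2. Intervals and such limits cover counting error only. The test for genes with a mean of at least 10 was limma 3.58.1 in R 4.3.3, with its trend option and no covariates, on log2(value + 1), a scale that understates fold changes at low values, with Benjamini-Hochberg adjustment over all 9870 and a threshold of 0.05. Alternatives were array weights, a robust prior, a replicate block, pseudocounts of 0.5 and 5, 3 other scalings, other filters on low values, omission of each library, edgeR 4.0.16, DESeq2 1.42.0, and removal of each library's trend on transcript length and GC content. The split by length and the ratios between genes within a library were added after the data were seen. The limma step was also run on simulated counts with a small fixed spread and no trend on length or GC content. That run therefore does not show how the test performs on these libraries. Positions and lengths come from GENCODE M21 (GRCm38), which names 35529 of the 38918 features, and promoters from RefSeq.

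The genes and lists were chosen with earlier results of these data known, so lists get counts and medians and no test. Values in every library are given, in each role group, for the genes with the 2 smallest p and the one with the highest mean, and for every gene with an unadjusted p under 0.05. Library values of other genes of the class were chosen after they were seen. At most 3 genes per other list are named, by smallest p in each direction and by highest mean.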

Additional observations from a re-analysis of the deposited data

How the results depend on the processing

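No gene was called by limma as reported, and leaving out 1 library gave 0 to 1 called genes; 23 were called with a replicate block, 699 with array weights and 100 with DESeq2. Repair genes at an unadjusted p under 0.05, 4 as reported, were 2 after median-of-ratios scaling, 2 with the replicate block, 8 with array weights, 2 with edgeR and 1 to 4 on leaving out 1 library. The share of all genes at that threshold was 11.2% as reported, 10.7% after median-of-ratios scaling, 15.3% with the block, 28.8% with array weights, 9.84% with edgeR and 3.34% to 16.6% on leaving out 1 library. The median log2 fold change of 0.44 was 0.24 after median-of-ratios scaling, 0.21 after quantile normalisation and 0.025 with the trend on transcript length and GC content removed; on leaving out 1 library it ranged between 0.30 and 0.47. The cause of these differences was not tested.

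Of 592 gene and alternative pairs, 36 reversed the sign, in 11 of the 37 genes; the other 26 genes kept theirs. With the length and GC trend removed, Brca2 was at -0.45, Bard1 -0.18, Brip1 -0.38, Atrip -0.028, Rbbp8 -0.26, Wrn -0.064, Prkdc -0.34, Lig4 -0.42, Polq -0.0038 and Parp1 -0.077. On leaving out 1 library, the fold changes ranged between -0.42 and 0.45 for Brca2, -0.015 and 0.39 for Brip1, -0.25 and 0.40 for Prkdc and -0.22 and 0.47 for Lig4, each lowest without maternal BSp replicate 2. They ranged between -0.66 and 0.31 for Rad54l (highest without control replicate 2), -0.066 and 0.25 for Atrip (lowest without control replicate 2) and -0.097 and 0.44 for Parp1 (lowest without control replicate 1). Upper quartile scaling put Brca2 at -0.030 and Atrip at -0.039. Median-of-ratios scaling put Brca2 at -0.11, Atrip -0.12, Prkdc -0.026, Lig4 -0.050 and Parp1 -0.038. Quantile normalisation put Brca2 at -0.16, Brip1 -0.038, Atrip -0.16, Prkdc -0.079 and Lig4 -0.078. Array weights put Brca2 at -0.16, Prkdc -0.13 and Parp1 -0.087, edgeR put Atrip at -0.082 and Parp1 -0.018, and DESeq2 put Atrip at -0.098 and Parp1 -0.044.

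Only 2 replicate numbers are shared by the groups, and the deviations of same-numbered libraries from their group means correlated at 0.09 and -0.09. With 2 controls the deviations of one are the exact opposite of the other's. These correlations therefore cannot tell whether same-numbered libraries are paired. The replicate block called 0 repair genes, gave a median of 0.47 and left 1 residual degree of freedom. Control replicate 1, with a median of 21 reads per repair gene, limits the precision of every comparison.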
